A study of Mus musculus with 20 samples.

Results

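The insulin-like growth factor (IGF) axis was measured in 20 mouse mammary tumours through 10 genes. They are the ligands Igf1 and Igf2, the receptors Igf1r and Igf2r, the receptor substrates Irs1 and Irs2, and the binding proteins Igfbp2, Igfbp3, Igfbp4 and Igfbp5. The genes were chosen by name, out of 38930 named genes, and each was represented by its transcript with the highest total over the 20 libraries. All 10 passed the filter on low values, which asked for a normalised count of at least 10 in at least 5 libraries and left 19840 genes to test. The question put to the data is whether oestrogen withdrawal with letrozole, blockade of the immune checkpoint receptor PD-1, or both were accompanied by a change in any of these genes.

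The tumours grew from SSM3 cells, 1 oestrogen receptor-positive mouse mammary tumour line, placed in the fourth inguinal mammary gland of immunocompetent 129S6/SvEv mice aged 2 to 4 months. Treatment began near a tumour volume of 150 mm3. There were 4 groups of 5 tumours, which the design text calls biological replicates: letrozole + anti-PD-1, letrozole, anti-PD-1 and vehicle. Mice of both letrozole groups had their ovaries removed and were injected under the skin each day, for 25 days, with letrozole at 1 mg/kg in 5% ethanol in saline. Mice of the anti-PD-1 and vehicle groups had sham surgery and the ethanol-saline solution alone over the same 25 days. Both antibody groups were given 250 µg of anti-PD-1 on days 3, 5 and 7 after surgery. Letrozole, an aromatase inhibitor, blocks the synthesis of oestrogens; since it was never given without ovariectomy, drug and surgery cannot be told apart, and "letrozole" stands here for both.

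In this pathway IGF1 and IGF2 bind the tyrosine kinase IGF1R, which phosphorylates the adaptor proteins IRS1 and IRS2 and so feeds PI3K-AKT-mTOR signalling, which promotes growth and restrains FOXO transcription factors. IGF2R carries no kinase of this kind and takes IGF2 into the cell for degradation. The secreted IGF-binding proteins hold the ligands in the extracellular space, where proteases release them. In the mammary gland the axis acts downstream of growth hormone and together with oestrogen, and IRS1 and IGF1R are known as oestrogen-responsive genes in human breast cancer cell lines.

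Library depth, as whole reads recovered for 1 transcript of each gene, was 12454194 to 31297742 reads per library. The shallowest library, anti-PD-1 replicate 1, detected 20965 genes, against 23938 to 28386 in the other 19. Pgr, the progesterone receptor gene and a standard readout of oestrogen action, ran from 733 to 1618 in letrozole + anti-PD-1 tumours, from 805 to 1726 in letrozole tumours, from 7763 to 18215 in anti-PD-1 tumours and from 11568 to 17673 in vehicle tumours, in normalised counts. Pgr thus separated the letrozole groups from the others without overlap, with an averaged log2 difference of −3.49 (SE 0.17, limma adjusted p = 4.16e-11). Of the luminal epithelium markers, 9 of 10 passed the filter, Esr1 (the oestrogen receptor gene) at 4100 to 7407, while Elf5, a marker of alveolar luminal cells, was at 0 in 7 libraries. Fibroblast, macrophage and endothelial genes were also measured in every group, so the libraries hold RNA of host cells beside that of SSM3 cells.

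Upstream sequence is shown for the 4 genes of the axis whose levels moved together from tumour to tumour (Igf1, Irs2, Igfbp2 and Igfbp4, described further on), so that their promoters can be set side by side. Each line holds the 250 bases before the gene's start in the RefSeq promoter table for GRCm38.p6, 5′ to 3′ on the gene's strand, and capitals mark the oestrogen response element half-site GGTCA (searched on both strands, so as TGACC too).
Igf1, chr10:87860861-87861110, plus strand: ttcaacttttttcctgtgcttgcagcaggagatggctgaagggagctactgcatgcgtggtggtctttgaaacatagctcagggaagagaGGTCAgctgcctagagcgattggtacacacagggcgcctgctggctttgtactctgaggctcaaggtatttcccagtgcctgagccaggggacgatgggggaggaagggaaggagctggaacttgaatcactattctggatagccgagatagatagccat
Irs2, chr8:11008930-11009179, minus strand: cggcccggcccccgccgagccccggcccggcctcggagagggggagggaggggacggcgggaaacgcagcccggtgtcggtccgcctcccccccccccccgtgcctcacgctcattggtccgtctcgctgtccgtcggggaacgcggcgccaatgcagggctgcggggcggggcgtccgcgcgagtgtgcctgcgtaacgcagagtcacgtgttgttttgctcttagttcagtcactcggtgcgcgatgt
Igfbp2, chr1:72824230-72824479, plus strand: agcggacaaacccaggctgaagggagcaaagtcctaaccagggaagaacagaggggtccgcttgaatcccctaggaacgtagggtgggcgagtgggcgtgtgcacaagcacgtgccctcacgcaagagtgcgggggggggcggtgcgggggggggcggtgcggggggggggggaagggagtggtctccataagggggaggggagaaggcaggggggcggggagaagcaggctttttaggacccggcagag
Igfbp4, chr11:99040994-99041243, plus strand: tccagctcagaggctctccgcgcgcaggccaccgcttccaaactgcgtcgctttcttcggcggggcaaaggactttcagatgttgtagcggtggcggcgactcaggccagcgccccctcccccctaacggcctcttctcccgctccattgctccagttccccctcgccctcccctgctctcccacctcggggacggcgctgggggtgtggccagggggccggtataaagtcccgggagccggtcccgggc
Only the Igf1 window of these 4 holds a half-site. All 10 genes matched the table, and among the rest Igf1r has 1 half-site in its window and Igf2r has 2, so that 3 of 10 windows hold at least 1, beside 35.2% of all 32851 windows of that length. The full palindromic element (GGTCA, any 3 bases, then TGACC), which contains the half-site, is in none of the 10 and in 0.0639% of all windows. The Igf1 window differs from the others in base content as well, with 52.8% G and C against 72.8% for Irs2, 67.2% for Igfbp2 and 69.2% for Igfbp4; the median of all windows is 52.4%. The TATA box TATAAA (either strand) is found in the Igfbp4 window and in 12.4% of all windows, and the GC box GGGCGG (either strand) 3 times in that of Igfbp2, once in that of Irs2 and in 32.7% of all windows. These are matches of letters, not measured binding sites. The Igf1 window also lies 2043 bases from the start of the transcript that represents Igf1 in these data, whereas those of Igfbp2 and Igfbp4 lie 23 and 0 bases from theirs, and that of Irs2 lies 471 bases away.

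The axis was not evenly expressed. Levels between genes were compared as normalised counts per kb of transcript, averaged over the 20 libraries. The length was that of the 1 transcript representing each gene, and the level depends on that choice. For Igf1 the 7052-base transcript used had a total of 6525.0 over the 20 libraries, and one of 510 bases had 1743.2. For Igfbp4 the totals were 44870.7 on the 3831 bases used and 22972.3 on 489 bases. The order below holds for the chosen transcripts, and other transcripts can change it. Igfbp5 (1087 ± 779) and Igfbp2 (1014 ± 946) had the highest mean levels, followed by Igfbp3 (761 ± 373), Igf2r (705 ± 122), Igfbp4 (586 ± 528) and Irs1 (528 ± 277; SD, n = 20 for each). Igf2 (255 ± 214), Igf1r (126 ± 19.9), Igf1 (46.3 ± 28.0) and Irs2 (18.6 ± 11.2) stood lower. Not every step of that order holds from tumour to tumour. Igf1r was above Igf1 in 20 of 20 libraries and Igf1 above Irs2 in 19, but Igf2 was above Igf1r in 11, and each step from Igfbp5 down to Irs1 held in only 9 to 14 of 20 libraries, so those 6 genes cannot be ordered beyond their spread.

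Within pairs of related genes, on the same chosen transcripts, the balance was more regular. Irs1 exceeded Irs2 per kb in 20 of 20 libraries, with a ratio of 10.2 to 80.0 and a median of 37.0. Igf2r exceeded Igf1r in 20 of 20, by 3.81 to 9.29 times. Igf1r stayed below Insr, the insulin receptor gene and its closest relative, in 20 of 20, at 0.332 to 0.623 times its level per kb. Igf2 exceeded Igf1 in 17 of 20, with a ratio that ran from 0.635 to 50.03. The median ratio of Igf2 to Igf1 was 1.95 in letrozole + anti-PD-1 tumours, 2.26 in letrozole tumours, 17.7 in anti-PD-1 tumours and 8.31 in vehicle tumours, and the ranges of the 4 groups overlapped.

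Igf1 (ENSMUST00000095360) encodes the ligand that mediates much of the growth effect of growth hormone. Over replicates 1 to 5 of each group, in normalised counts, Igf1 was measured at 219, 434, 225, 362 and 546 in letrozole + anti-PD-1 tumours and at 521, 368, 299, 294 and 653 in letrozole tumours. The corresponding counts were 167, 57.4, 322, 203 and 725 in anti-PD-1 tumours and 139, 121, 600.0, 52.3 and 218 in vehicle tumours. Each of the letrozole-treated tumours lay above 200, while 2 anti-PD-1 tumours and 3 vehicle tumours lay below it, but anti-PD-1 replicate 5 and vehicle replicate 3 were among the highest of all 20, and no 2 groups were separate. The letrozole effect averaged over both antibody arms was a log2 difference of 0.97 (SE 0.40, 95% interval 0.14 to 1.81), unadjusted p = 0.0249 and limma adjusted p = 0.153, so Igf1 did not pass. Against vehicle alone, letrozole gave 1.31 (SE 0.57, adjusted p = 0.303). Vehicle replicate 3 decides this call: without it the averaged difference was 1.21 with an adjusted p of 0.0357. In a bulk sample fewer cells of an expressing type and less RNA per cell cannot be told apart, here and for every gene below.

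Igf2 (ENSMUST00000121128), the ligand cleared by IGF2R, had one of the widest spreads of the axis. In letrozole + anti-PD-1 tumours Igf2 stood at 286, 2407, 118, 293 and 1608, and in letrozole tumours at 259, 556, 284, 2361 and 1519. Its values were 1985, 989, 646, 2983 and 308 in anti-PD-1 tumours, against 338, 1611, 3340.0, 1753 and 459.5 in vehicle tumours. High and low tumours occurred in each group, and the groups overlapped throughout. The averaged letrozole difference was −0.82 on the log2 scale (95% interval −2.07 to 0.42, limma adjusted p = 0.432). The representing transcript shares 76.2% of its exon bases with Gm49394 on the same strand, so reads of the pair cannot be told apart.

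Igf1r (ENSMUST00000005671), the signalling receptor, was the most even gene of the axis. Replicates 1 to 5 had 1018, 1548, 1352, 1459.8 and 1630.4 normalised counts of Igf1r with letrozole + anti-PD-1, and 1892, 1664, 1379, 1573 and 1713 with letrozole. The anti-PD-1 tumours had 1197, 1323, 1193, 1168 and 1739.7, and the vehicle tumours 1344, 1249, 1635, 1387 and 1341. All 20 tumours lay within 1.86-fold of each other, and the groups overlapped. The averaged letrozole difference was 0.16 (SE 0.09, 95% interval −0.03 to 0.35, limma adjusted p = 0.318) and that of anti-PD-1 was −0.16 (SE 0.09, 95% interval −0.36 to 0.03, adjusted p = 0.998). Both intervals lie within 0.36 log2 units of 0, so a larger averaged change in either direction falls outside them.

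Igf2r (ENSMUST00000024599), the scavenging receptor, was nearly as even. Igf2r counts were 7361, 4621, 9086, 6398 and 5884 in letrozole + anti-PD-1 tumours and 5621, 6347, 7225, 6541 and 5447 in letrozole tumours. The corresponding counts were 5509, 6777, 4386, 6919 and 5792 in anti-PD-1 tumours and 5644, 6820.3, 5262, 7504 and 6131 in vehicle tumours. The 20 tumours spanned 2.07-fold, and both the lowest and the highest values among the letrozole-treated tumours came from the letrozole + anti-PD-1 group. The averaged difference was 0.08 for letrozole (95% interval −0.15 to 0.31, limma adjusted p = 0.709) and −0.02 for anti-PD-1 (95% interval −0.25 to 0.21, adjusted p = 0.998).

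Irs1 (ENSMUST00000069799), the more abundant receptor substrate here, differed by 5.22-fold between its lowest and highest tumour. In letrozole + anti-PD-1 tumours Irs1 stood at 2891, 8028, 3201, 4542 and 3020.2, and in letrozole tumours at 5350.1, 2697, 5172, 3024 and 8943. Its values were 10582, 4451, 3788, 4446 and 9914 in anti-PD-1 tumours, against 4450.0, 3314, 4124, 2533 and 2026 in vehicle tumours. Vehicle tumours stayed at or below 4450.0, and 2 anti-PD-1 tumours stood above all others, yet the other 3 anti-PD-1 tumours lay within or just beside the vehicle range. Anti-PD-1 against vehicle gave a log2 difference of 0.93 (SE 0.36, 95% interval 0.18 to 1.68) with an unadjusted p of 0.017 and a limma adjusted p of 1. Letrozole + anti-PD-1 against letrozole gave −0.20 (SE 0.36, adjusted p = 1), and the interaction, which is the test of the difference between these 2 effects, was −1.13 (SE 0.51, unadjusted p = 0.0374, adjusted p = 1). Irs1 therefore passed in none of them. It shares 30.9% of its exon bases with Gm9747 on the opposite strand, and whether counting was stranded is unknown, so reads of the pair cannot be told apart.

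Irs2 (ENSMUST00000040514), the second substrate, was the least abundant gene per kb of the chosen transcripts. Replicates 1 to 5 had 35.9, 142, 49.5, 115 and 193 normalised counts of Irs2 with letrozole + anti-PD-1, and 172, 110.1, 92.9, 167 and 212 with letrozole. The anti-PD-1 tumours had 178, 40.3, 102, 75.2 and 194, and the vehicle tumours 38.5, 53.3, 279, 34.5 and 69.4. The letrozole group was the most even of the 4, whereas vehicle replicate 3 stood above every other tumour. The averaged letrozole difference was 0.45 (95% interval −0.36 to 1.26, limma adjusted p = 0.516). For letrozole against vehicle it was 1.09 (SE 0.55, adjusted p = 0.388), and 1.59 (adjusted p = 0.0676) without vehicle replicate 3.

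**Figure D1:**
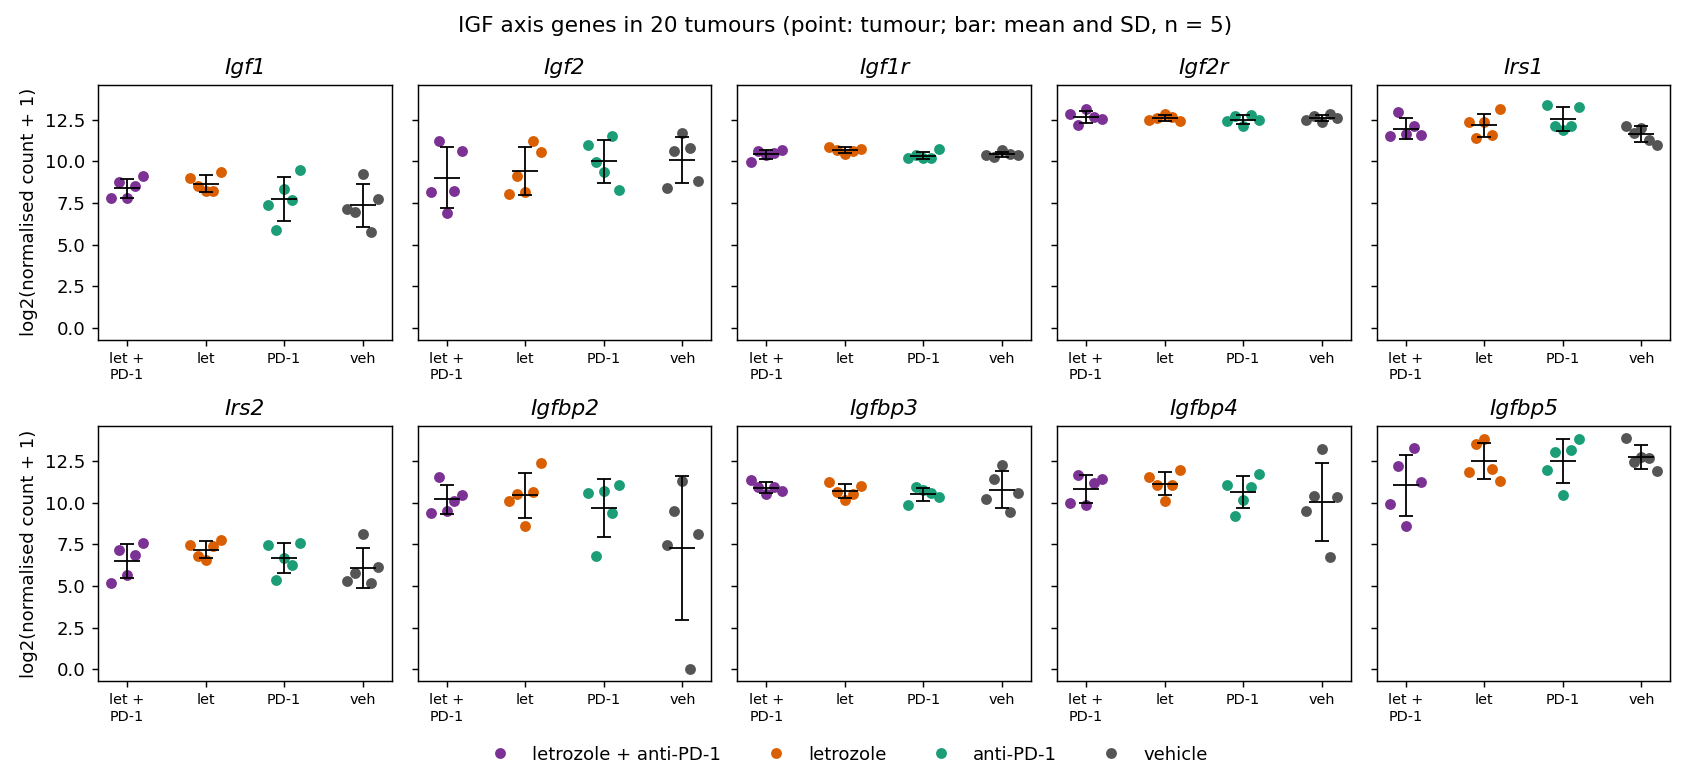
Normalised counts of the 10 genes on a log2(value + 1) axis, 1 point per tumour, with black bars for mean and SD (n = 5 per group). Groups run from letrozole + anti-PD-1 (let + PD-1) and letrozole (let) to anti-PD-1 (PD-1) and vehicle (veh). Igf1r and Igf2r form tight bands, while Igfbp2 and Igfbp4 spread most in the vehicle group, where replicate 4 has an Igfbp2 value of 0.

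Igfbp2 (ENSMUST00000047328), a binding protein that prefers IGF2, was the most variable gene of the axis. Igfbp2 counts were 675, 3004, 733, 1091 and 1391 in letrozole + anti-PD-1 tumours and 1089, 1479.6, 384, 1603 and 5279.6 in letrozole tumours. The corresponding counts were 1517, 110.1, 1661, 658 and 2145 in anti-PD-1 tumours and 172, 724, 2511, 0.0 and 277 in vehicle tumours. Vehicle replicate 4 had no recovered read on any of the 3 Igfbp2 transcripts, while vehicle replicate 3 stood above all but 2 of the 20 tumours. Letrozole against vehicle gave a log2(value + 1) difference of 3.17 (SE 1.38, 95% interval 0.29 to 6.06, unadjusted p = 0.0325, limma adjusted p = 0.305), and letrozole + anti-PD-1 against vehicle gave 2.93 (SE 1.38, unadjusted p = 0.0466, adjusted p = 0.368). Vehicle replicates 4 and 3 move the first of these in opposite directions: it was 1.36 (adjusted p = 0.582) without replicate 4 and 4.18 (adjusted p = 0.0779) without replicate 3. edgeR on the recovered reads gave 1.42 (adjusted p = 0.573). Against anti-PD-1, letrozole + anti-PD-1 differed by only 0.50 (SE 1.38, adjusted p = 0.91), and the averaged effect was 1.84 (SE 0.98, adjusted p = 0.271).

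Igfbp3 (ENSMUST00000020702), the main carrier of IGFs in blood, varied less. In letrozole + anti-PD-1 tumours Igfbp3 stood at 2673, 1928, 1470.3, 1964 and 1639, and in letrozole tumours at 2433, 1614, 1125, 1489 and 2013. Its values were 923, 1927, 1727, 1523 and 1320.0 in anti-PD-1 tumours, against 1189, 2708, 4957, 707 and 1521 in vehicle tumours. The 3 treated groups covered similar ranges, and vehicle held both the highest and the lowest tumour. Its averaged letrozole difference was 0.16 (95% interval −0.37 to 0.69, limma adjusted p = 0.756).

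Igfbp4 (ENSMUST00000017637), a binding protein cleaved by the protease PAPP-A, had its extremes in vehicle tumours too. Replicates 1 to 5 had 997, 3222, 935, 2357 and 2733 normalised counts of Igfbp4 with letrozole + anti-PD-1, and 2956, 2179, 1085, 2134 and 3906 with letrozole. The anti-PD-1 tumours had 2143, 595, 1153, 1958 and 3415, and the vehicle tumours 723, 1356, 9634, 106 and 1282. Vehicle replicates 3 and 4 were the highest and the lowest of all 20, a 91.0-fold span. Letrozole against vehicle gave 1.10 (SE 0.77, limma adjusted p = 0.552), and 1.90 (adjusted p = 0.091) without vehicle replicate 3. The mean normalised count points the other way, at 2452 ± 1050 in letrozole tumours and 2620 ± 3953 in vehicle tumours (SD, n = 5 each), with vehicle replicate 3 at 9634 and its other 4 tumours at 106 to 1356. The count models on recovered reads turned the direction too, at −0.07 by edgeR (adjusted p = 0.985) and −0.10 by DESeq2 (adjusted p = 0.975).

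Igfbp5 (ENSMUST00000027377), the highest of the 4 binding proteins in mean level per kb of the chosen transcripts and one induced in the involuting mammary gland, varied 39.8-fold. Igfbp5 counts were 953, 4620.0, 383, 9787 and 2431 in letrozole + anti-PD-1 tumours and 3693, 11883, 14279.9, 4196 and 2519 in letrozole tumours. The corresponding counts were 3908, 8572, 1386, 9326 and 14779 in anti-PD-1 tumours and 15253, 5554, 6741, 6452 and 3833 in vehicle tumours. The 2 lowest tumours were letrozole + anti-PD-1 replicates 3 and 1, but replicate 4 of that group stood among the higher tumours. Letrozole + anti-PD-1 against vehicle gave −1.69 (SE 0.74, 95% interval −3.23 to −0.15, unadjusted p = 0.0331, limma adjusted p = 0.325), against letrozole −1.47 (SE 0.74, adjusted p = 1) and against anti-PD-1 −1.46 (SE 0.74, adjusted p = 0.402). These 3 comparisons share the letrozole + anti-PD-1 tumours.

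Over the whole axis none of the 10 genes passed the threshold in any of the 8 comparisons by limma, and none did by edgeR or DESeq2 on the recovered reads. Of all 19840 genes, limma called 0.958% for letrozole against vehicle, 1.07% for letrozole + anti-PD-1 against anti-PD-1, 1.18% for letrozole + anti-PD-1 against vehicle and 7% for letrozole averaged over both antibody arms. At these shares a count of 0 among 10 genes is near the background. It called 0% for anti-PD-1 against vehicle, 0% for letrozole + anti-PD-1 against letrozole, 0% for anti-PD-1 averaged over both letrozole arms and 0% for the interaction. In those 4 comparisons 539, 627, 746 and 392 genes had an unadjusted p under 0.05, edgeR called 0 genes in each, and DESeq2 called 5, 9, 1 and 4.

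At an unadjusted p under 0.05 the axis gave 2 genes for letrozole against vehicle (Igf1 and Igfbp2), 2 for letrozole + anti-PD-1 against vehicle (Igfbp2 and Igfbp5), and 1 each for letrozole averaged (Igf1), anti-PD-1 against vehicle (Irs1) and the interaction (Irs1). The other 3 comparisons gave 0. Over all 19840 genes the share under that p was 13.9% for letrozole against vehicle, 13.2% for letrozole + anti-PD-1 against vehicle and 22.9% for letrozole averaged. It was 2.72% for anti-PD-1 against vehicle and 1.98% for the interaction. Counts of 1 or 2 among 10 genes are therefore no result about the axis. The median log2 difference of the 10 genes under letrozole averaged was 0.16, with 7 positive and 3 negative, beside a median of 0.03 over all genes. For anti-PD-1 averaged it was −0.03, with 4 positive and 6 negative, beside −0.01 over all genes.

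**Figure D2:**
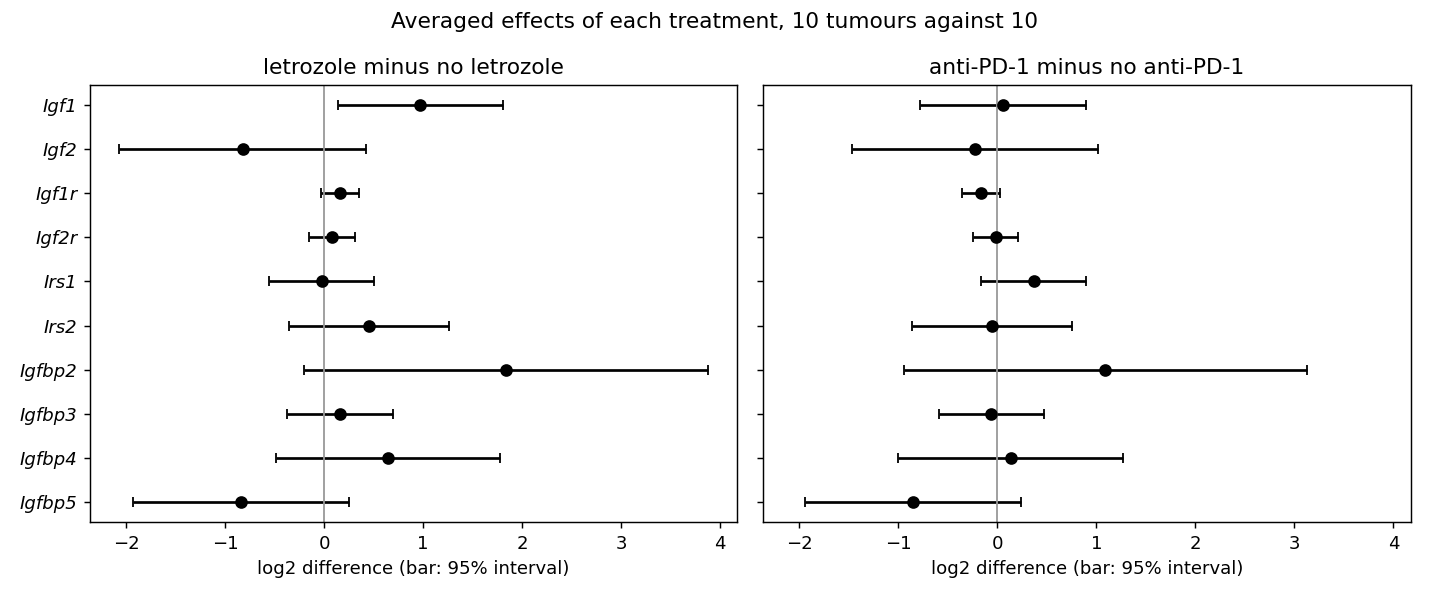
Log2 differences of the 10 genes with 95% intervals (not adjusted for multiple tests), for letrozole averaged over both antibody arms on the left and anti-PD-1 averaged over both letrozole arms on the right, 10 tumours against 10. The Igf1r and Igf2r intervals are the narrowest and that of Igfbp2 the widest, and only that of Igf1 under letrozole lies wholly to one side of 0.

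The genes differed in how much they varied within groups, which sets what these 5 tumours per group can show. The residual SD on the log2 scale was 0.21 for Igf1r and 0.26 for Igf2r, below the median of all tested genes (0.38). It was 0.63 for Irs1, 0.64 for Igfbp3, 0.95 for Irs2 and 1.00 for Igf1. Igfbp5 (1.32), Igfbp4 (1.37), Igf2 (1.503) and Igfbp2 (2.47) were more variable still, and 99.5% of tested genes had a smaller SD than Igfbp2. The 2 receptors were thus the steadiest of the 10 genes, and 3 binding proteins and 1 ligand the least steady.

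Part of that spread was shared. Igf1, Irs2, Igfbp2 and Igfbp4 varied together over the 20 tumours, with Pearson's r between 0.70 and 0.90 for their 6 pairs. Igfbp2 and Igfbp4 had r = 0.90 and Spearman's rho = 0.83, and r = 0.85 without the 2 tumours farthest from the median of Igfbp4. Here and below, those 2 tumours were picked on a single variable of each relation. It was the gene that comes later in the opening list of the axis, or the marker mean. An extreme tumour of the other variable can therefore remain. Irs2 and Igfbp4 had r = 0.85, rho = 0.92 and r = 0.89 without 2 tumours. For Igf1, r was 0.85 with Igfbp4 (rho 0.85, and r = 0.81 without 2 tumours), 0.82 with Irs2 (rho 0.82, then 0.83) and 0.80 with Igfbp2 (rho 0.78, then 0.71), and Irs2 with Igfbp2 had r = 0.70 (rho 0.84, then 0.77). Two-sided permutation p-values of these pairs were 1e-05 to 8e-05, where 1e-05 is the smallest that 100000 permutations can give, and 0.000112 to 0.00072 after Benjamini-Hochberg adjustment over the 270 p-values of 135 relations. Taken as deviations from group means, the 6 correlations were 0.67 to 0.91.

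Other pairs were looser. Igf1r followed Irs2 (r = 0.66, rho = 0.65, adjusted permutation p = 0.00773 and 0.0107, r = 0.63 without 2 tumours) and Igf1 (r = 0.61, rho = 0.74, adjusted permutation p = 0.0175 and 0.00206, r = 0.65 without 2 tumours). Igf2r ran against Irs2 (r = −0.59, rho = −0.67, adjusted permutation p = 0.0234 and 0.00771, r = −0.50 without 2 tumours). Other pairs passed 0.05 by rho only. Igf2r ran against Igfbp2 (r = −0.46, rho = −0.69, adjusted permutation p = 0.116 and 0.00612) and Igfbp4 (r = −0.50, rho = −0.64, adjusted permutation p = 0.0723 and 0.0142). It also ran against Igf1 (r = −0.47, rho = −0.54, adjusted permutation p = 0.101 and 0.0476). Igf1r followed Igfbp4 (r = 0.49, rho = 0.67, adjusted permutation p = 0.079 and 0.00771). The r of 0.61 between Igfbp3 and Igfbp4 (rho = 0.43, adjusted permutation p = 0.0239 and 0.136) was 0.07 without the 2 farthest tumours and so rests on them. With the 4 co-varying genes Igf2 had r of −0.08 to 0.32 and Igfbp5 had −0.17 to 0.09. Without the 2 farthest tumours these ran from −0.23 to 0.47 for Igf2, highest with Igfbp2, and from −0.33 to −0.14 for Igfbp5. The adjusted permutation p of these 8 pairs was 0.295 or more.

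**Figure D3:**
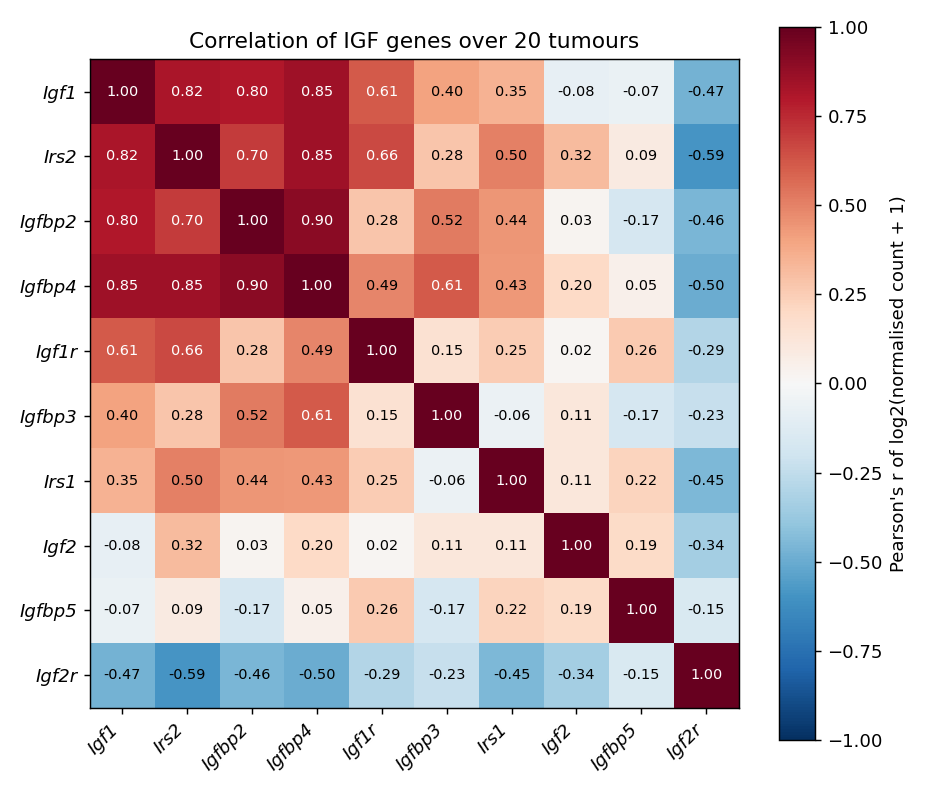
Pearson's r between the 10 genes over 20 tumours, on log2(value + 1), from −1 (blue) to 1 (red). The upper left block holds Igf1, Irs2, Igfbp2 and Igfbp4, with r of 0.70 to 0.90; the order of the genes was set after their values were known.

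The 4 genes also moved with markers of host cells. Igfbp4 had r = 0.96 and rho = 0.97 with the mean of 10 fibroblast markers (r = 0.94 without 2 tumours), Igfbp2 had r = 0.89 and rho = 0.86 (then 0.86), Igf1 had r = 0.89 and rho = 0.82 (then 0.79), and Irs2 had r = 0.87 and rho = 0.92 (then 0.87). Igf1 was closest to the mean of 10 macrophage markers, with r = 0.95 and rho = 0.95 (then 0.91). The adjusted permutation p of these 5 relations was 0.000112 for r and 0.000112 to 0.0002 for rho. The fibroblast and macrophage means themselves had r = 0.93, so the 2 cell types cannot be set apart by these relations. Nor are the relations limited to these lists. With the endothelial mean r was 0.88 for Igfbp4, 0.79 for Igfbp2, 0.75 for Igf1 and 0.66 for Irs2 (rho 0.80, 0.58, 0.73 and 0.64, and r of 0.71, 0.54, 0.59 and 0.51 without 2 tumours), with adjusted permutation p of 0.000112 to 0.0286. With the T cell, adipocyte and basal and myoepithelial means the 4 genes had r of 0.47 to 0.70 (rho 0.41 to 0.80, and r of 0.46 to 0.81 without 2 tumours). The adjusted permutation p was 0.0208 or less in 11 of those 12 relations, and 0.0629 and 0.156 for Igfbp2 with the adipocyte mean. Some markers of these 3 lists lay near the floor. Median counts were 5.1 for Cd2 (at 0 in 6 libraries), 6.1 for Lep (at 0 in 6) and 5.3 for Trp63 (at 0 in 5). In the T cell list the medians of Cd3e (7.2), Cd4 (9.7), Cd8a (6.9) and Trac (8.2) were low as well. So was that of Retn (6.3) in the adipocyte list, while Oxtr (16.2) and Krt17 (16.9) of the basal list lay little higher. The highest median of each list was that of Foxp3 (263), Lpl (379) and Acta2 (864). Foxp3 stayed between 206 and 415 in all libraries. Against the same fibroblast mean Igf2 had r = 0.21 (rho 0.35, and r = 0.52 without 2 tumours), Igfbp5 −0.06 (rho −0.05, then 0.08) and Irs1 0.43 (rho 0.36, then 0.41), with adjusted permutation p of 0.135 or more, and Igfbp3 was nearest to the endothelial mean (r = 0.72, rho = 0.59, adjusted permutation p = 0.00284 and 0.0255, r = 0.45 without 2 tumours). The 2 receptors were related to these lists too, less closely. Igf1r had r = 0.53 and rho = 0.67 with the fibroblast mean (adjusted permutation p = 0.0533 and 0.00773). With the macrophage mean its r was 0.59 and its rho 0.73 (adjusted permutation p = 0.0237 and 0.00277). Igf2r ran the other way, with rho = −0.61 for fibroblast and −0.56 for macrophage markers (r = −0.48 and −0.47). Its adjusted permutation p was 0.0208 and 0.0351 for rho, and 0.087 and 0.0988 for r. With the proliferation mean Irs2 had r = −0.58 and rho = −0.54 (adjusted permutation p = 0.0285 and 0.0488). Igf1r had r = −0.59 and rho = −0.54 with it (adjusted permutation p = 0.0237 and 0.0464). None of the other genes passed 0.05 there. For Igf2 that r was −0.31, and −0.79 as deviations from group means, a value that was not tested.

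**Figure D4:**
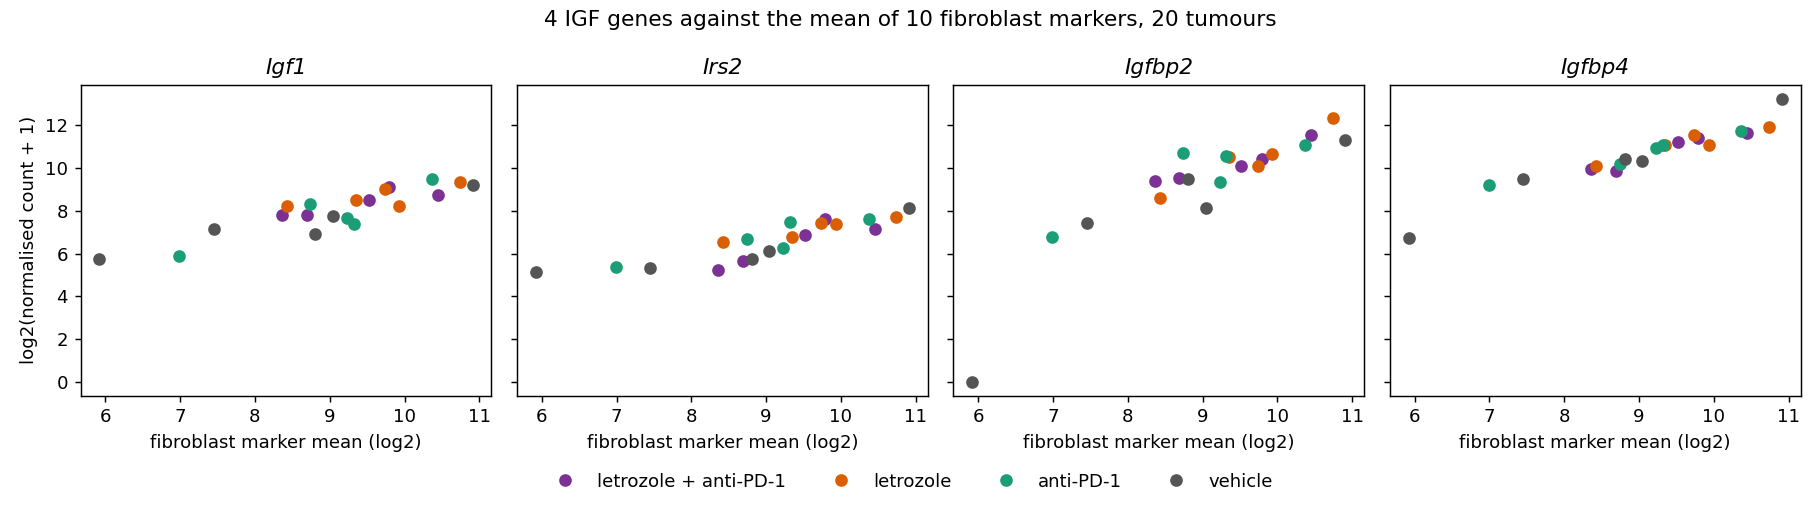
Log2(normalised count + 1) of Igf1, Irs2, Igfbp2 and Igfbp4 against the mean log2 level of 10 fibroblast markers, 1 point per tumour, coloured by group. Each gene climbs with the marker mean across all 4 groups, and the vehicle tumours mark both ends of the axis, at 5.92 and 10.91.

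The group means of both marker lists lay in the same order as those of Igf1, highest with letrozole and lowest with vehicle. On the log2 scale Igfbp2 and Igfbp4 had that order too, though the mean count of Igfbp4 was highest with vehicle (2620). Irs2 did not have it, with a log2 mean of 6.68 in anti-PD-1 and 6.50 in letrozole + anti-PD-1 tumours. The fibroblast mean was 9.36 ± 0.84 in letrozole + anti-PD-1, 9.64 ± 0.84 in letrozole, 8.93 ± 1.24 in anti-PD-1 and 8.43 ± 1.87 in vehicle tumours (log2, SD, n = 5 each), and 0 of 10 fibroblast markers passed for letrozole averaged, where 7% of all genes did. The averaged log2 differences of these 10 markers ran from −1.26 to 1.88, with 9 of them positive. Their summed normalised counts ran from 11660 to 43791 in letrozole + anti-PD-1, 8967 to 71814 in letrozole, 5724 to 40345 in anti-PD-1 and 2475 to 64118 in vehicle tumours. Lum and Dpt were at 0 in 2 libraries each, and the other 8 markers were above 0 in all 20. The macrophage mean was 9.49 ± 0.54, 9.57 ± 0.34, 8.88 ± 0.68 and 8.71 ± 1.08 in the same order of groups, with 1 of 10 markers higher under letrozole averaged (again beside 7% of all genes) and all 10 above 0 in every library. Summed macrophage counts ran from 6050 to 13746 in letrozole + anti-PD-1, 7348 to 13915 in letrozole, 3014 to 10215 in anti-PD-1 and 2174 to 18934 in vehicle tumours. Vehicle replicate 3 had the highest fibroblast mean of all tumours and vehicle replicate 4 the lowest. The part of these cells in the levels of Igf1, Irs2, Igfbp2 and Igfbp4 was not tested.

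The tested genes most like each member over the 20 tumours were found by Pearson's r, given as a description. Igfbp4 was nearest to Fzd1 (0.98), Gpc6 (0.97) and Nbl1 (0.97), and Igfbp2 to Lox, a collagen cross-linking enzyme (0.97), Rcn3 (0.97) and Crispld2 (0.96). Irs2 was nearest to Ddr2, a collagen receptor (0.94), Anpep (0.93) and Cacna1g (0.92), and Igf1 to Pltp (0.96), Slc43a2 (0.96) and Nfam1 (0.95). Igf2 was nearest to Igf2os (0.91), transcribed antisense from the Igf2 locus, and far less near to any other gene, the next being Il12rb1 (0.75) and Txndc11 (0.74). Nearest values were lower for Igf1r (Zfp9 0.83, Dmd 0.81 and Arid1b 0.81), Igf2r (Tanc2 0.82, Frmd5 0.81 and Itgav 0.76), Igfbp3 (Lix1l 0.82, Bmp2k 0.81 and Mcam 0.79) and Igfbp5 (Dock11 0.86, Acot1 0.85 and Zfp532 0.85). Irs1 had no close companion, with Cnot11 (0.70), Osr1 (0.69) and Adh1 (0.68).

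Around the 10 genes, single other genes of the pathway lists passed under letrozole averaged, where 7% of all genes did. The lists were chosen with earlier results of these data known, so a call within them is a description only. Of 8 tested genes for binding-protein proteases and their inhibitors, 1 fell and 0 rose: Stc2, which encodes stanniocalcin 2, an inhibitor of the IGFBP4-cleaving protease PAPP-A. Stc2 averaged 1062 ± 353 in letrozole + anti-PD-1 and 1008 ± 315 in letrozole tumours, against 5742 ± 2669 in anti-PD-1 and 7202 ± 2132 in vehicle tumours (SD, n = 5 each), an averaged log2 difference of −2.61 (SE 0.21, adjusted p = 1.44e-07). Among 18 genes of PI3K-AKT-mTOR signalling 1 rose and 1 fell. Pik3r1, a regulatory subunit of PI3-kinase, rose to 4545 ± 880.4 in letrozole + anti-PD-1 and 4938 ± 1489 in letrozole tumours, against 2870 ± 603 in anti-PD-1 and 2909 ± 593 in vehicle tumours (log2 0.71, SE 0.13, adjusted p = 0.00326).

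Eif4ebp1, a translation repressor that mTOR inactivates, fell to 728 ± 102 in letrozole + anti-PD-1 and 720.0 ± 94.4 in letrozole tumours, against 1019 ± 199 in anti-PD-1 and 1133 ± 296 in vehicle tumours (log2 −0.54, SE 0.12, adjusted p = 0.0109). Foxo4 was the 1 gene that fell among 12 FOXO factors and targets, with 0 that rose, at 1601 ± 322 in letrozole + anti-PD-1 and 1549 ± 240 in letrozole tumours, against 2315 ± 418 in anti-PD-1 and 2171 ± 489 in vehicle tumours (log2 −0.50, SE 0.11, adjusted p = 0.0109). No gene passed among 7 of the IGF family and IGF2 control, 4 receptors, 11 substrates and adaptors, or 7 binding-protein genes. Those lists include the axis genes themselves, namely Igf1, Igf2, Igf1r, Igf2r, Irs1, Irs2, Igfbp2, Igfbp3, Igfbp4 and Igfbp5. The results of these axis genes are those given above, counted again here. All the pathway lists are small, and their counts stand beside the 7% of all genes called. They are therefore no result about the pathway. Of Stc2, Pik3r1, Eif4ebp1 and Foxo4, only Stc2 passed in the single letrozole comparisons. None of the 4 passed in an anti-PD-1 comparison, where no gene did.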

How the data were processed

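RNA from 20 tumours was sequenced. STAR 2.7.10a, DESeq2 and GRCm39 are named in the submitters' processing notes. Not given in the sources used here are which DESeq2 release, counting tool and annotation were used and whether counting was stranded. The authors deposited 1 table of 127442 transcripts whose unit is a signal, namely reads scaled by library size factors of 0.472 to 1.46. Whole reads were recovered from it for 100% of values at a tolerance of 0.001. Among recovered counts of 1 to 20, 57.9% to 69.6% were even, so a read may not be an independent molecule. GENCODE vM21 (GRCm38) named 93.3% of transcripts; the others, with 1.79% to 2.77% of reads, were not tested, nor were 49 symbols shared by several genes. The builds differ, so only promoter windows have coordinates.

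The main test was limma 3.58.1 (R 4.3.3) with a trend on log2(value + 1), so differences of low genes are understated. A single fit of the 4 groups took all 20 tumours and left 16 degrees of freedom, with two-sided p adjusted by Benjamini and Hochberg over 19840 genes within each of 8 contrasts, and a threshold of 0.05. Intervals are at 95% and are not adjusted. The fit was also run on simulated data, with changes planted only in genes of higher level and limited spread. That run therefore says nothing on the recovery of changes in genes as variable as Igfbp2. The 35 alternatives included the count tests of edgeR 4.0.16 and DESeq2 1.42.0, other pseudocounts (0.5 and 5), filters and scalings, a replicate block, and each library left out in turn.

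The 10 genes and all lists were chosen with earlier results of these data known. Named beside them are, by rule, pathway genes past the threshold (at most 6 per contrast), the 3 genes most correlated with each (no predicted genes) and Pgr. Insr was added as the nearest relative of Igf1r. Correlations were tested with 100000 permutations. Replicate numbers did not pair the tumours. No protein sequences were used here.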

Additional observations from a re-analysis of the deposited data

Results flagged for a closer look

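In 6 of 40 sets of 5 tumours (10 genes in 4 groups) the highest tumour stood apart from the rest of its group. Its gap to the next was a larger part of the group's range than Dixon's critical value. The rule was applied to normalised counts and not repeated on the log2 scale. Its rate of about 1 in 20 by chance holds for normally distributed values. Counts with a long upper tail can exceed it, so the 6 sets cannot be set against that rate. Vehicle replicate 3 accounts for 3 of the 6. It had 279.0 normalised counts of Irs2, where the next vehicle tumour had 69.4, 2511 of Igfbp2 (next 724) and 9634 of Igfbp4 (next 1356). That tumour also had the highest fibroblast marker mean of all 20, at 10.91 on the log2 scale. Letrozole replicate 5 had 5279.6 of Igfbp2 (next 1603), vehicle replicate 1 had 15253 of Igfbp5 (next 6741), and anti-PD-1 replicate 5 had 1739.7 of Igf1r (next 1323), a gene that otherwise varied little.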

How the results depend on the processing

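The number of the 10 genes called was 0 in all 8 comparisons under every alternative run, with 1 exception. When single tumours were left out, the count for letrozole averaged over both antibody arms ran from 0 to 1, and it was 1 only without vehicle replicate 3, where Igf1 passed (log2 1.21, adjusted p = 0.0357). Without vehicle replicate 3 and the shallow anti-PD-1 replicate 1 together, Igf1 was at 1.16 (adjusted p = 0.0512), and over all alternatives its difference ran from 0.59 to 1.21 with an adjusted p of 0.0357 to 0.423. With a replicate block the count was 0 in each comparison; same-numbered tumours had correlated deviations of −0.34 to 0.20 (median 0.005 over 30 pairs), so the numbers share no more than a name.

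The sign of a difference changed with the setting for several genes, none of them called. Igfbp4 for letrozole against vehicle, 1.10 by limma, ran from −0.10 to 1.90 and was below 0 by edgeR and DESeq2, and Igfbp3 for letrozole averaged from −0.01 to 0.35. Stc2, Pik3r1, Eif4ebp1 and Foxo4 passed for letrozole averaged under all 34 alternatives that apply to it. With 5 tumours per group, the spread of Igf2, Igfbp2, Igfbp4 and Igfbp5 leaves intervals wide enough to hold large changes, so missing the threshold does not show that they did not change.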

Other observations

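Marker levels outside the IGF axis are given as values. For letrozole averaged, 7 of 10 proliferation markers fell and 3 of 9 tested luminal epithelium markers rose, beside 7% of all genes called in either direction. The proliferation mean was 10.49 ± 0.44 in letrozole + anti-PD-1, 10.13 ± 0.28 in letrozole, 10.76 ± 0.13 in anti-PD-1 and 10.91 ± 0.15 in vehicle tumours (log2, SD, n = 5 each). Basal and myoepithelial markers were most uneven in the letrozole group, at 7.88 ± 1.83, against 6.22 ± 1.10 in letrozole + anti-PD-1, 5.92 ± 1.15 in anti-PD-1 and 5.58 ± 1.14 in vehicle tumours, and 0 of 10 passed.

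H19, the RNA expressed from the locus next to Igf2, had 94.2 ± 56.1 normalised counts in letrozole + anti-PD-1, 169 ± 89.1 in letrozole, 58.0 ± 10.2 in anti-PD-1 and 78.7 ± 59.2 in vehicle tumours. It passed in no comparison.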
